A study of Drosophila melanogaster with 31 samples.

Results

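The genes described here are the 9 enzymes of the main glycolytic chain named Hex-A, Pgi, Pfk, Ald, Tpi, Gapdh1, Pgk, Eno and PyK, together with ImpL3, the lactate dehydrogenase gene that current annotation calls Ldh. They were chosen by name, with earlier results of these data known. All 10 were found among the 17373 genes of the count table and had enough counts to be tested. Their levels were followed through 6 groups of 3 RNA libraries from wing imaginal discs of third-instar Drosophila melanogaster larvae. Wing imaginal discs are the larval epithelia that form the adult wing and notum. The series, by its title, is about how the Hippo pathway changes which genes answer Ras.

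The discs were mosaic. All groups carried ubxflp, a source of the recombinase that makes the clones, in a y w background. In every group the FRT82B chromosome was paired with one that carried M(3), a Minute mutation that slows growth, and the ubiGFP label. The groups differed in what the unlabelled FRT82B chromosome carried and in age. The cic wts groups carried both cicQ474X and wts149 and were sampled at day 9 and at day 5. The wts groups carried wts149 alone, also at day 9 and day 5. The cic group carried cicQ474X alone at day 5, and the control group carried no mutant allele there at day 5. No day 9 RNA libraries of control or cic discs were among the samples. In the day 9 groups a difference from control would therefore mix genotype with age. Capicua, the product of cic, is a repressor of genes that Ras and EGFR signalling turn on, and Warts, the product of wts, is a kinase of the Hippo pathway and keeps the growth co-activator Yorkie in check. Each library was a pool of whole, hand-dissected discs from 12 to 35 larvae kept at 25 degrees, so it mixes clone cells with the heterozygous Minute cells around them. The share of clone cells is not given in the labels. The labels number the pools without saying that they came from separate cultures; p-values then reflect only how these 3 pools per group vary, which may be technical.

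Glycolysis splits glucose into pyruvate and yields ATP without oxygen. Phosphofructokinase is its main point of control in animals, and lactate dehydrogenase turns pyruvate into lactate while it restores the NAD that the chain consumes. In Drosophila larvae, lactate dehydrogenase supports rapid growth, is induced by low oxygen through the HIF factor Sima, and is also raised in some tumour models of the wing disc.

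Libraries held between 14201662 and 26217144 counts. Levels are CPM, the counts of a gene scaled to library size, computed here with TMM-scaled library sizes, and where 3 values are listed for a group they belong to replicates 1, 2 and 3. CPM is not divided by transcript length, so levels are compared between groups for a gene and never between genes. All 9 wing disc markers were detected in every library, with summed levels of 2430 to 3380 CPM. The cic transcript stood at 450 to 516 CPM in the 6 cic wts libraries, against 609 to 748 CPM in the 6 wts libraries. It stood at 396 to 578 CPM in cic discs, against 533 to 658 CPM in control discs, where the groups overlapped. The wts transcript was higher in all 12 libraries labelled wts149, at 162 to 278 CPM, than in the 6 cic and control libraries, at 95 to 110 CPM. An allele with a premature stop need not lose its transcript, so these levels are a weak check of the labels. Transcripts of other tissues were uneven within groups. The 7 salivary gland markers summed to 6140 CPM in control replicate 3 and to 3.63 and 257 CPM in replicates 1 and 2. The 7 hemocyte markers summed to 1630 CPM in replicate 1 of day 5 cic wts discs and to 33.7 and 61.3 CPM in replicates 2 and 3. The 6 fat body markers summed to 623 CPM in replicate 2 of day 5 cic wts discs and to 4.78 and 3.25 CPM in replicates 1 and 3. The 8 comparisons that include a day 5 control or day 5 cic wts group were therefore also run without control replicate 3 and cic wts day 5 replicate 1, and calls of the 10 genes that this removed are named beside the gene. These fits kept cic wts day 5 replicate 2, the library rich in fat body transcripts. In bulk discs, fewer cells of a type and less RNA per cell cannot be told apart.

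Against control discs at day 5, 3 chain enzymes fell and 1 rose in wts discs, and 5 fell in cic wts discs. ImpL3 was far higher in day 9 cic wts discs than in any other group. In day 5 wts against control discs, 1 of the 10 genes rose (Ald) and 3 fell (Tpi, Gapdh1 and Eno) by edgeR's quasi-likelihood test at an adjusted p under 0.05. Of all 9004 tested genes, 18.2% were called there, 10.0% as rises and 8.16% as falls. The count depended on single libraries: it was 2 of 10 without control replicate 2, 1 without wts replicate 1 and 0 without wts replicate 3. In day 5 cic wts against control discs, 0 rose and 5 fell (Pfk, Tpi, Gapdh1, Pgk and Eno), where 22.5% of all tested genes were called, 11.3% as rises and 11.2% as falls. Without control replicate 1 the count was 3, and without cic wts replicate 2 it was 2. In day 5 cic wts against cic discs, 1 rose (Ald) and 4 fell (Pfk, Tpi, Pgk and Eno), with 29.2% of all tested genes called, 15.0% as rises and 14.2% as falls. The count was 3 without cic wts replicate 2. The median log2 fold change of the 10 genes was -0.25 in wts against control, -0.29 in cic wts against control and -0.20 in cic wts against cic discs, against 0.00, 0.01 and 0.01 over all tested genes. Scaling by total counts in place of TMM moved the share of rises among all calls to 37% in wts against control (55% with TMM), to 36.7% in cic wts against control (50.1%) and to 40.9% in cic wts against cic discs (51.4%). Without the 2 libraries rich in other-tissue transcripts, 3 of the 10 genes were called in wts against control discs. There were 6 in cic wts against control and 5 in cic wts against cic discs. That fit kept control replicate 2 and cic wts replicate 2, the latter rich in fat body transcripts. Markers of differentiated muscle also moved with these groups. Of 11 tested, 8 fell in cic wts against control discs (median log2 fold change -3.04 over the 11), 1 fell in wts against control discs (median -2.45), and in cic wts against cic discs 1 rose and 0 fell (median -2.06). The 12 muscle genes in the table summed to 204 to 357 CPM in day 5 cic wts discs, 196 to 330 CPM in wts discs and 97.7 to 495 CPM in cic discs of that age, against 431, 1180 and 345 CPM in control replicates 1, 2 and 3. Much of the sums in the wts and cic wts discs was sls. It stood at 155 to 186 CPM in cic wts, 101 to 132 CPM in wts, 56.8 to 101 CPM in cic and 120 to 145 CPM in control discs. The sums thus understate how far most other muscle genes lay below control. In cic wts replicates 1 and 3, 1 of the 12 was at 0, and 0 were at 0 in the other day 5 libraries. Control replicate 2, the library richest in muscle transcripts, also had the highest Gapdh1 level, and the part of muscle in these falls was not tested. These comparisons share libraries, so their counts are not independent of each other.

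Loss of cic alone moved none of the 10 genes past the threshold. In day 5 cic against control discs the count was 0 of 10 with edgeR, 0 of 10 at an unadjusted p under 0.05 and 0 of 10 with DESeq2, where edgeR called 1.63% of all tested genes, 0.955% as rises and 0.677% as falls. The lowest unadjusted p was 0.072, for Ald, at a log2 fold change of -0.20 ± 0.10 (SE). For the 9 chain enzymes the 95% intervals lay between -0.52 and 0.43. The interval of ImpL3 was far wider, -1.04 to 1.53. In the wts background at day 5, cic wts against wts discs gave 0 rises and 1 fall, that of Pfk, where 2.91% of all tested genes were called (1.04% rises, 1.87% falls). At day 9 the same contrast gave 2 rises, ImpL3 and Hex-A, and 0 falls, where 6.90% were called (2.89% rises, 4.01% falls). Day 9 against day 5 gave 1 rise in wts discs, that of ImpL3, where 6.89% of genes were called (4.19% rises, 2.70% falls). In cic wts discs it gave 3 rises, of ImpL3, Pfk and Hex-A, where 10.6% were called (6.06% rises, 4.54% falls). The median log2 fold change of the 10 genes stayed between -0.13 and 0.06 in these 5 comparisons.

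**Figure D1:**
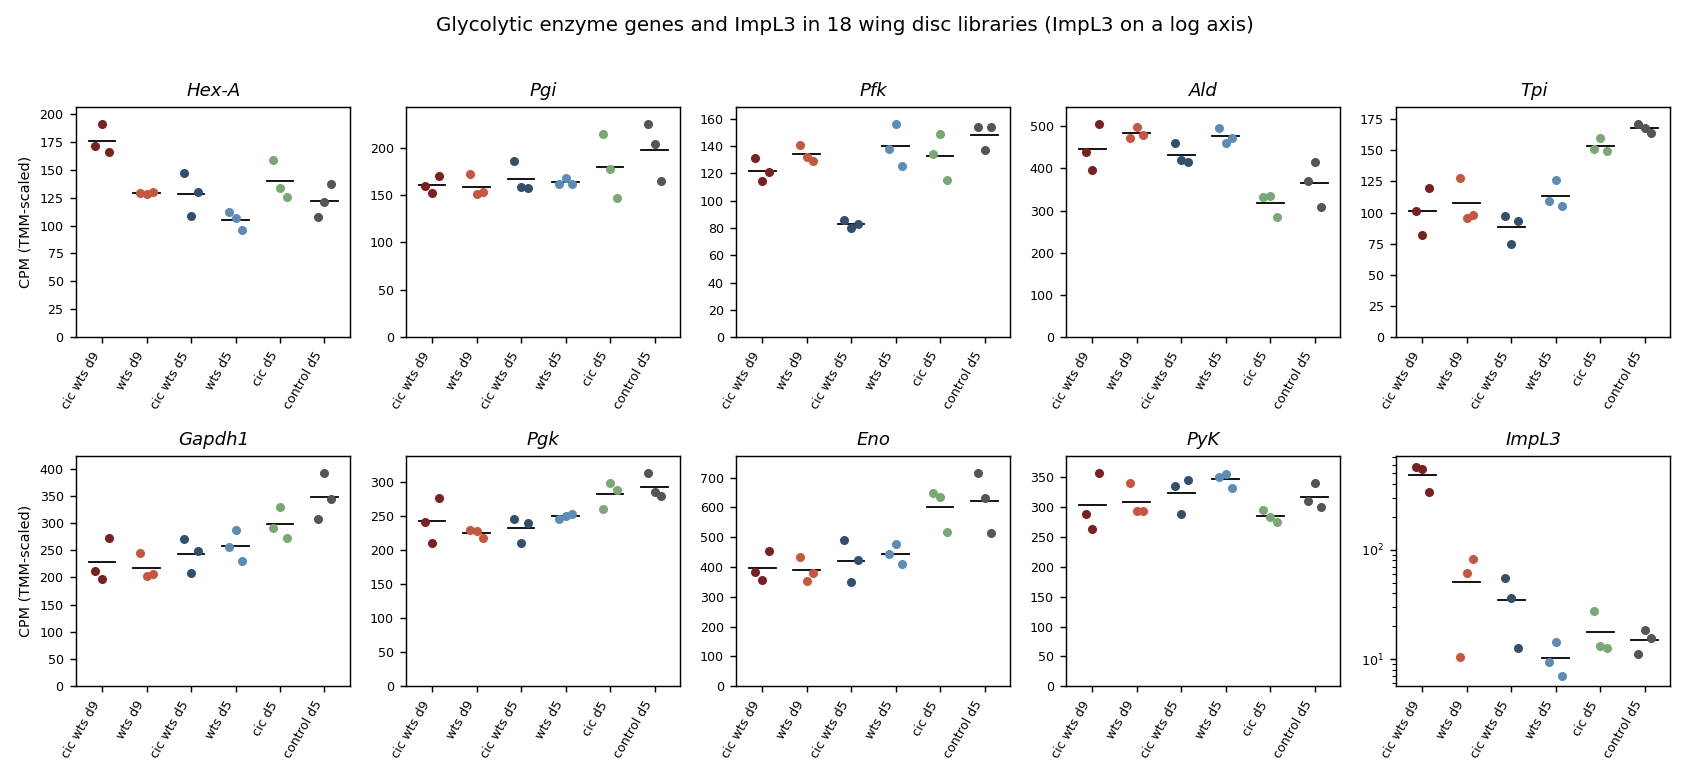
Each panel shows 1 gene; the vertical axis is its level in TMM-scaled CPM (linear from 0, but a log axis for ImpL3) and the horizontal axis the 6 groups. Points are the 3 libraries of a group and bars their mean; ImpL3 stands at 338 to 577 CPM in day 9 cic wts discs and at no more than 81.6 CPM elsewhere, and Pfk is lowest in day 5 cic wts discs.

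Hex-A encodes the main hexokinase of Drosophila, which phosphorylates glucose as it enters the chain. It stood at 171, 191 and 166 CPM in day 9 cic wts discs, and at 129, 128 and 130 CPM in wts discs of the same age. At day 5 it stood at 147, 109 and 130 CPM in cic wts discs, at 112, 107 and 96.1 CPM in wts discs, at 159, 134 and 126 CPM in cic discs and at 108, 121 and 137 CPM in control discs. The 3 cic wts day 9 libraries were above every other library, while neighbouring groups below them in the order of means all overlapped. Hex-A rose in day 9 cic wts against wts discs (log2 fold change 0.45 ± 0.11, SE; adjusted p = 0.022). It rose by as much in day 9 against day 5 cic wts discs (0.45 ± 0.11, adjusted p = 0.02). Both calls were fragile. The first was lost in 5 of the 6 fits that left out 1 of its libraries, with adjusted p between 0.053 and 0.12; it was kept without cic wts day 9 replicate 3. The second was lost in 3 of 6 such fits, without cic wts day 5 replicate 2 and without cic wts day 9 replicates 1 or 2 (adjusted p 0.069 to 0.089), and also in a fit restricted to its own 6 libraries (adjusted p = 0.057).

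Pgi, glucose-6-phosphate isomerase, had 160, 152 and 170 CPM in day 9 cic wts discs and 172, 151 and 153 CPM in wts discs of that age. At day 5 it had 186, 159 and 157 CPM in cic wts discs, 162, 168 and 162 CPM in wts discs, 215, 178 and 147 CPM in cic discs, and 225, 204 and 165 CPM in control discs. The control libraries included the highest value, and every neighbouring pair of groups in the order of means overlapped. Pgi passed in none of the 10 comparisons with all 18 libraries. Its difference in wts against control discs was -0.27 ± 0.12 (adjusted p = 0.14), and it passed when control replicate 3 was left out (-0.39, adjusted p = 0.045). That library is the one rich in salivary gland transcripts. Without it and cic wts replicate 1, Pgi also passed in cic wts against control discs (-0.44, adjusted p = 0.027).

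Pfk, phosphofructokinase, was at 85.5, 80 and 82.9 CPM in day 5 cic wts discs, against 138, 156.5 and 125 CPM in wts discs of that age. It was at 134, 149 and 115 CPM in cic discs and at 154, 137 and 154 CPM in control discs. At day 9 it was at 131, 114 and 121 CPM in cic wts discs and at 141, 132 and 129 CPM in wts discs. The 3 cic wts libraries of day 5 thus lay below all 15 others, with no overlap, and the other 5 groups overlapped with their neighbours. Pfk fell in day 5 cic wts discs against wts discs (-0.75 ± 0.09, adjusted p = 0.00027), against cic discs (-0.68 ± 0.09, adjusted p = 7.1e-05) and against control discs (-0.84 ± 0.09, adjusted p = 1.9e-05). In cic wts discs it rose at day 9 against day 5 (0.56 ± 0.09, adjusted p = 0.0026), and at day 9 cic wts and wts discs did not pass (-0.14 ± 0.09, adjusted p = 0.49). All 4 of these calls were kept in every fit that left out 1 library and under every other alternative tried. In day 5 cic against control discs the difference was -0.16 ± 0.09 (adjusted p = 0.6).

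The difference between the effect of cic with and without wts was tested as an interaction at day 5, where Pfk was the 1 call among the 10 genes (-0.59 ± 0.13, adjusted p = 0.032), beside 1.94% of all tested genes (0.744% positive, 1.20% negative). This call was lost in 8 of the 12 fits that left out 1 library, with adjusted p of 0.051 to 0.092: those without control replicates 1 or 2, cic replicate 2, wts replicates 1 or 2, or any cic wts replicate. It was also lost in a fit of the 12 day 5 libraries alone (-0.61, adjusted p = 0.086) and without the 2 libraries rich in other-tissue transcripts (-0.64, adjusted p = 0.056), while the estimate stayed between -0.68 and -0.50 in the fits that left out 1 library. The interaction of cic with day in wts discs called 0 of 9004 genes with edgeR, 593 at an unadjusted p under 0.05 and 32 with DESeq2. Pfk had the lowest p of the 10 genes there (0.62 ± 0.13, unadjusted p = 3e-04, adjusted p = 0.19), and DESeq2 called it and 0 of the other 9. Markers of adult muscle progenitors (twi, Ama, zfh1, htl and Him) moved in the same direction as Pfk in 2 comparisons at day 5. All 5 fell in cic wts against control discs, where 22.5% of all tested genes were called (11.2% falls). In cic wts against wts discs 3 of 5 fell, where 2.91% were called (1.87% falls). In wts against control discs 3 of 5 fell as well (median log2 fold change -0.78 over the 5), where 8.16% of all tested genes fell. Pfk did not pass there (-0.09 ± 0.09, adjusted p = 0.54). Of the 5 markers, 0 were at 0 in any library. Their sums were 151 to 217 CPM in day 9 cic wts discs and 238 to 285 CPM in wts discs of that age. At day 5 they were 94.6 to 127 CPM in cic wts discs, 155.7 to 188 CPM in wts discs, 308 to 355 CPM in cic discs and 288 to 309 CPM in control discs. Their part in the level of Pfk was not tested.

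Ald, fructose-bisphosphate aldolase, was the 1 chain enzyme called as a rise in the day 5 comparisons. It stood at 438, 395 and 505 CPM in day 9 cic wts discs and at 471, 499 and 479 CPM in wts discs of that age. The day 5 levels were 460, 419 and 415 CPM in cic wts discs, 496, 460 and 472 CPM in wts discs, 331, 335 and 285 CPM in cic discs and 369, 416 and 308 CPM in control discs. The day 5 wts libraries were all above the control libraries, and the day 5 cic wts libraries were all above the cic libraries. Between cic wts and control discs at day 5 there was an overlap, since control replicate 2 stood at 416 CPM. Ald rose in wts against control discs (0.39 ± 0.10, adjusted p = 0.019) and in cic wts against cic discs (0.44 ± 0.10, adjusted p = 0.0045). In cic wts against control discs it did not pass (0.24 ± 0.10, adjusted p = 0.11), although it did when control replicate 2 was left out (0.35, adjusted p = 0.032). The call in wts discs was lost without control replicate 3 (0.28, adjusted p = 0.074), without wts replicate 1 (0.35, adjusted p = 0.072) and without wts replicate 3 (0.38, adjusted p = 0.061), and in a fit of its own 6 libraries (0.37, adjusted p = 0.058). It was lost as well without the 2 libraries rich in other-tissue transcripts (0.28, adjusted p = 0.071). The call in cic wts against cic discs was kept in all 6 such fits.

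Tpi, triose phosphate isomerase, interconverts the products of aldolase. It stood at 101, 81.8 and 120 CPM in day 9 cic wts discs and at 128, 96 and 97.8 CPM in wts discs of that age. At day 5 it stood at 97.3, 74.8 and 93.2 CPM in cic wts discs, at 109, 126 and 105 CPM in wts discs, at 151, 160 and 149 CPM in cic discs and at 171, 168 and 164 CPM in control discs. All 12 libraries with wts149 were below all 6 without it, and the cic libraries lay below the control libraries without overlap. Tpi fell in wts against control discs (-0.57 ± 0.13, adjusted p = 0.0094), and this call was narrowly lost without wts replicate 3 (-0.52, adjusted p = 0.051). It fell in cic wts against control discs (-0.92 ± 0.14, adjusted p = 0.00021) and against cic discs (-0.79 ± 0.14, adjusted p = 0.00042), and both calls were kept in every fit without 1 library. In cic against control discs the difference did not pass (-0.13 ± 0.13, adjusted p = 0.79), and neither did day 5 cic wts against wts discs (-0.36 ± 0.14, adjusted p = 0.2).

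Gapdh1 encodes one of the glyceraldehyde-3-phosphate dehydrogenases of the fly. It stood at 212, 198 and 273 CPM in day 9 cic wts discs and at 245, 203 and 207 CPM in wts discs of that age. The day 5 levels were 271, 208 and 248 CPM in cic wts discs, 256, 287 and 230 CPM in wts discs, 291, 330 and 272 CPM in cic discs and 307, 392 and 344 CPM in control discs. Every wts and cic wts library was below the 3 control libraries. Gapdh1 fell in wts against control discs (-0.43 ± 0.14, adjusted p = 0.039) and in cic wts against control discs (-0.52 ± 0.14, adjusted p = 0.013). The first call was lost in 4 of 6 fits, those without control replicates 2 or 3 or wts replicates 1 or 3 (adjusted p 0.072 to 0.15), and without the 2 libraries rich in other-tissue transcripts (-0.44, adjusted p = 0.064). The second was lost without control replicate 2 or cic wts replicate 2 (adjusted p 0.056 and 0.068). Its paralogue Gapdh2 stood at 623 to 652 CPM in wts discs and 568 to 643 CPM in day 5 cic wts discs, against 633 to 766 CPM in control discs, and did not pass in wts (-0.16 ± 0.10, adjusted p = 0.29) or cic wts discs (-0.24 ± 0.10, adjusted p = 0.11). The treatment of reads that match both copies is not stated in the labels, and the split between the copies is uncertain.

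Pgk, phosphoglycerate kinase, carries out the first ATP-forming step. It stood at 241, 210 and 276 CPM in day 9 cic wts discs and at 230, 228 and 218 CPM in wts discs of that age. At day 5 it stood at 246, 210 and 240 CPM in cic wts discs, at 245, 250 and 253 CPM in wts discs, at 260, 298 and 288 CPM in cic discs and at 313, 286 and 279 CPM in control discs. The day 5 wts and cic wts libraries were all below the cic and control libraries. Pgk fell in cic wts against control discs (-0.33 ± 0.09, adjusted p = 0.013) and against cic discs (-0.28 ± 0.09, adjusted p = 0.025). The first call was lost without control replicate 1 or cic wts replicate 2 (adjusted p 0.065 and 0.07). The second was lost in 3 of 6 such fits, without cic replicates 2 or 3 or cic wts replicate 2 (adjusted p 0.075 to 0.12), and in a fit of its own 6 libraries (adjusted p = 0.08). In wts against control discs it stayed outside the threshold (-0.23 ± 0.09, adjusted p = 0.08), which DESeq2 passed (-0.25, adjusted p = 0.034).

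Eno, enolase, showed the same ordering of groups as Gapdh1 and Pgk at day 5. It stood at 384, 355 and 453 CPM in day 9 cic wts discs and at 435, 353 and 381 CPM in wts discs of that age. The day 5 levels were 490, 348 and 425 CPM in cic wts discs, 444, 478 and 411 CPM in wts discs, 647, 634 and 518 CPM in cic discs and 715, 632 and 514 CPM in control discs. All 12 wts and cic wts libraries were below all 6 cic and control libraries. Eno fell in wts against control discs (-0.48 ± 0.14, adjusted p = 0.029), in cic wts against control discs (-0.56 ± 0.14, adjusted p = 0.011) and in cic wts against cic discs (-0.51 ± 0.14, adjusted p = 0.014). Each call depended on single libraries. The first was lost in 4 of 6 fits, without control replicates 1 or 2 or wts replicates 1 or 3 (adjusted p 0.07 to 0.13). The second was lost without control replicate 1 or cic wts replicate 2 (adjusted p 0.061 and 0.063), and the third without cic replicate 1 or cic wts replicate 2 (adjusted p 0.05 to 0.075). Both cic wts calls were also lost in fits of their own 6 libraries (adjusted p = 0.065 and 0.056).

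PyK, pyruvate kinase, makes pyruvate and a further ATP. It stood at 289, 264 and 357 CPM in day 9 cic wts discs and at 340, 293 and 293 CPM in wts discs of that age. At day 5 it stood at 335, 289 and 346 CPM in cic wts discs, at 351, 356 and 332 CPM in wts discs, at 295, 284 and 275 CPM in cic discs and at 311, 340 and 300 CPM in control discs. Neighbouring groups in the order of means all overlapped, and PyK passed in none of the 10 comparisons. Its difference was 0.13 ± 0.10 in wts against control discs (adjusted p = 0.39) and 0.03 ± 0.10 in cic wts against control discs (adjusted p = 0.88). In wts against control discs, 1 chain enzyme thus rose, 3 fell and 5 did not pass. Of all tested genes, 18.2% were called there (10.0% rises, 8.16% falls). Of the 10 genes, 8 had a negative log2 fold change, among them the uncalled Hex-A (-0.22), Pgi (-0.27) and Pgk (-0.23). Whether the chain moved as 1 unit was not tested.

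**Figure D2:**
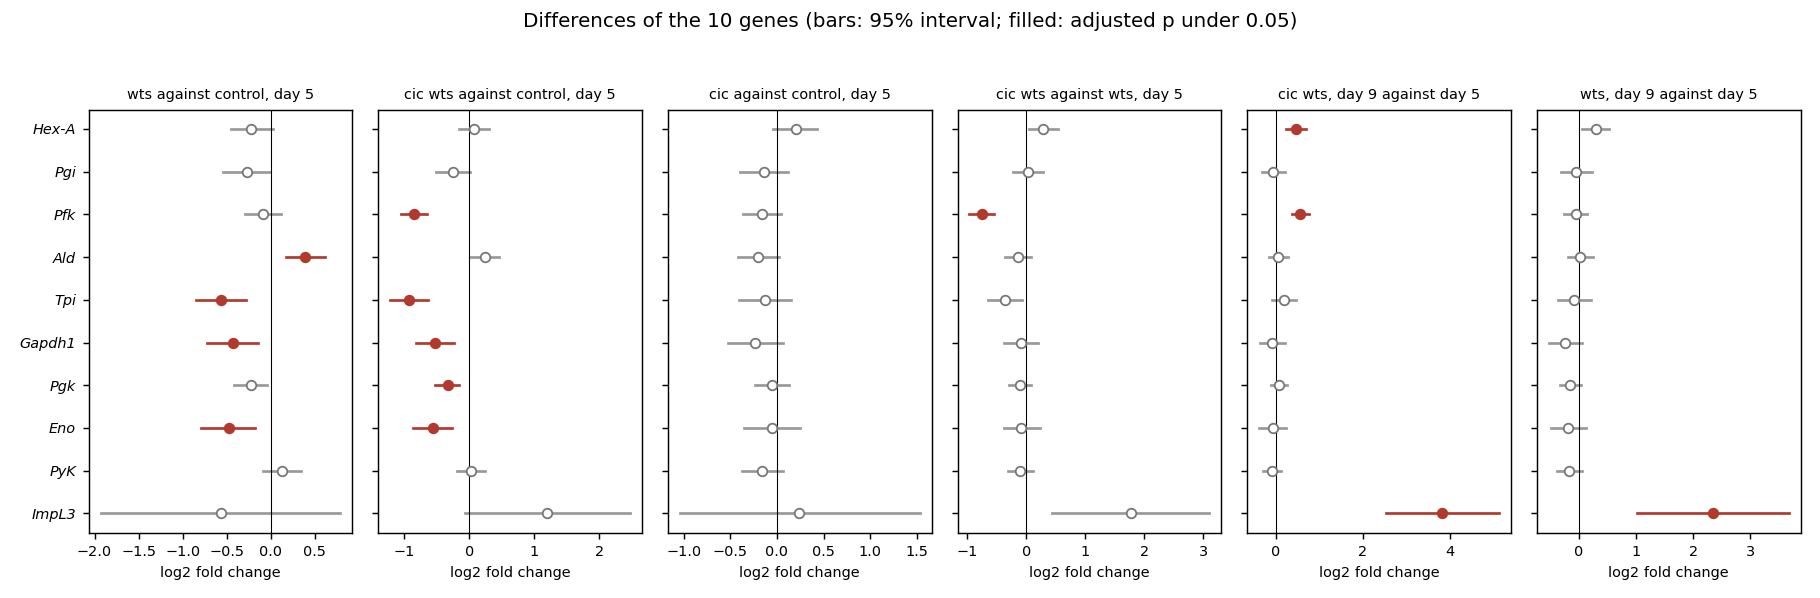
The horizontal axis of each panel is the log2 fold change of a comparison, on its own scale, with the 10 genes down the page. Bars are 95% intervals and filled points have an adjusted p under 0.05; Pfk is the filled point in day 5 cic wts against wts discs (-0.75), and ImpL3 has the widest intervals throughout.

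ImpL3 was the gene with the widest range. It stood at 577, 547 and 338 CPM in day 9 cic wts discs, a mean of 487 ± 130 CPM (SD, n = 3), against 10.5, 61.1 and 81.6 CPM in wts discs of that age, a mean of 51.1 ± 36.6 CPM. The day 5 levels were 55.1, 36.2 and 12.7 CPM in cic wts discs, 9.47, 14.2 and 7.05 CPM in wts discs, 27.5, 13.1 and 12.6 CPM in cic discs and 11.1, 18.3 and 15.7 CPM in control discs. The cic wts day 9 libraries were above all 15 others, with no overlap, and each of the lower neighbouring groups overlapped the next. Replicates of the middle groups also differed from each other: wts day 9 replicate 1 was within the range of wts day 5, and cic wts day 5 replicate 3 was at the level of the control libraries. The lowest library still held 136 counts of the gene.

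ImpL3 rose in day 9 cic wts against wts discs by a log2 fold change of 3.25 ± 0.60, or 9.52-fold (adjusted p = 0.0033). It rose in day 9 against day 5 cic wts discs by 3.82 ± 0.62, or 14.1-fold (adjusted p = 0.0019). Both calls were kept in every fit without 1 library, where the estimates ran from 2.77 to 3.77 and from 3.41 to 4.34. In wts discs the rise at day 9 against day 5 was 2.34 ± 0.63 (adjusted p = 0.037), with overlapping groups. That call was lost in 5 of 6 fits without 1 library (adjusted p 0.087 to 0.15) and was kept without wts day 9 replicate 1, the low library (2.82, adjusted p = 0.0078). At day 5, cic wts against wts discs gave 1.77 ± 0.63, with a 95% interval of 0.44 to 3.10, and did not pass (adjusted p = 0.17). Against control discs the differences at day 5 were 1.20 ± 0.60 in cic wts (adjusted p = 0.16), -0.57 ± 0.64 in wts (adjusted p = 0.56) and 0.24 ± 0.61 in cic discs (adjusted p = 0.94).

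Whether the effect of cic on ImpL3 differed with wts or with age was tested directly, and neither interaction passed. With wts at day 5 the interaction came to 1.52 ± 0.87 (adjusted p = 0.45). With day in wts discs it came to 1.48 ± 0.84 (adjusted p = 0.81), with a 95% interval of -0.29 to 3.26. Markers of other tissues were not uniform over these libraries. Hemocyte markers, 7 of 7 detected, summed to 80.7 to 91.2 CPM in day 9 cic wts discs, against 77.3 to 162 CPM in wts discs. The 5 tracheal markers (btl, trh, dys, verm and serp) summed to 1960 to 2230 CPM in day 9 cic wts discs and to 1760 to 2130 CPM in day 9 wts discs, against 1430 to 1810 CPM and 1500 to 1620 CPM in the same genotypes at day 5. None of the 5 was at 0 in any library. Of them, 0 rose and 3 fell in day 9 cic wts against wts discs, and 1 rose and 1 fell in day 9 against day 5 cic wts discs. Most of each sum was verm, at 1370 to 1580 CPM in day 9 cic wts discs and 1200 to 1510 CPM in wts discs. Next came serp, at 513 to 569 and 435 to 483 CPM. The sums thus hide that btl (4.31 to 4.74 against 8.48 to 10.5 CPM) was lower in day 9 cic wts than wts discs. So were trh (63 to 71.3 against 101 to 109 CPM) and dys (5.77 to 8.96 against 14 to 15 CPM). The fat body markers summed to 0.968 to 13.1 CPM in day 9 cic wts discs, with 2 of 6 at 0 in replicate 1 and 1 of 6 in replicate 3, against 12.9 to 220 CPM in day 9 wts discs. At day 5 the library richest in hemocyte transcripts, cic wts replicate 1, also had the highest ImpL3 of its group, at 55.1 CPM, and the part of that tissue in the value was not tested. Without that library and control replicate 3, the rise at day 9 in cic wts discs was still called. Leaving out the highest day 5 value by itself widens that difference, so this fit cannot test the part of hemocytes.

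The genes whose levels followed ImpL3 most closely over the 18 libraries were ImpL2 (Pearson r = 0.959 on log2 CPM), CG9747 (0.93), Sirup (0.89), CG10365 (0.89) and Atg13 (0.88). These are descriptions over 18 libraries that share their groups. ImpL2 encodes a secreted protein that binds insulin-like peptides. It stood at 918, 1040 and 443 CPM in day 9 cic wts discs and at 134, 177 and 288 CPM in wts discs of that age. At day 5 it stood at 318, 198 and 133 CPM in cic wts discs, at 87.4, 108 and 71.4 CPM in wts discs, at 206, 157 and 115 CPM in cic discs and at 142, 138 and 111 CPM in control discs. As for ImpL3, replicate 3 was the lowest of the cic wts day 9 group. Sirup, an assembly factor of succinate dehydrogenase, stood at 273, 298 and 168 CPM in day 9 cic wts discs, against 34.2, 56.7 and 58.9 CPM in wts discs, with the same library lowest. CG9747 stood at 121, 135 and 131 CPM in day 9 cic wts discs, against 18.3, 42.4 and 41.6 CPM in wts discs, and there replicate 1, not replicate 3, was the lowest of the cic wts group.

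**Figure D3:**
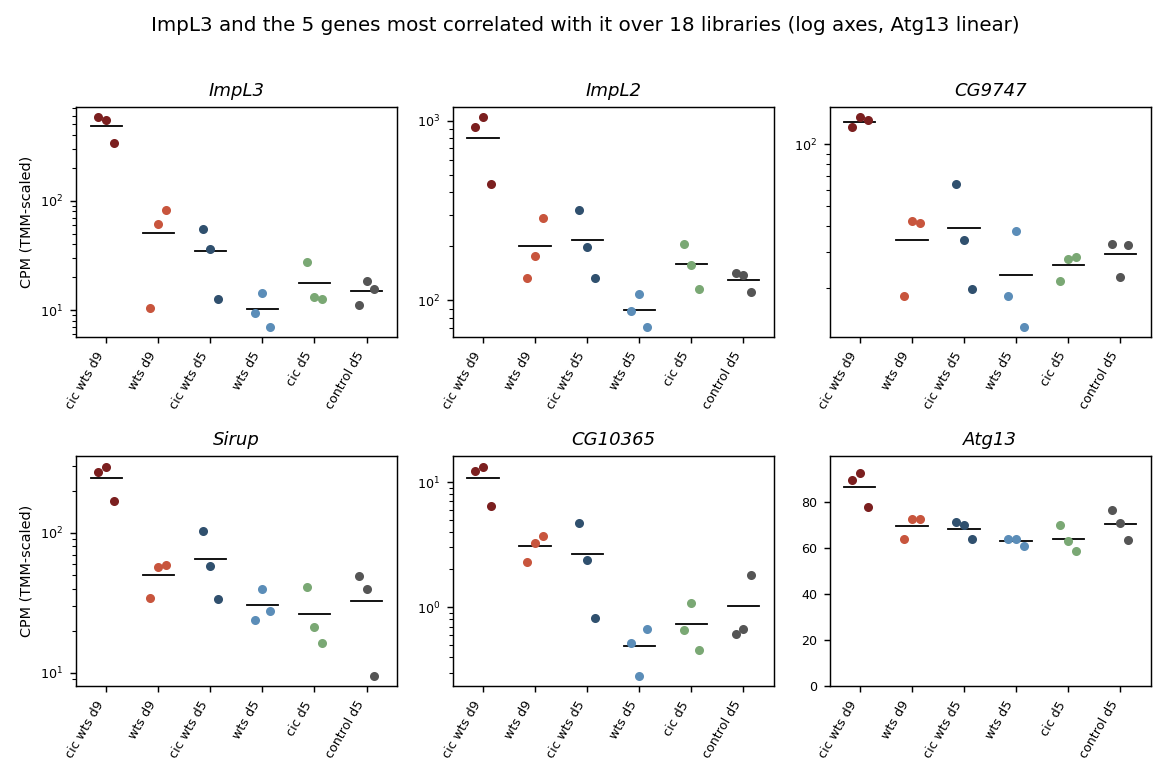
Each panel shows the level in TMM-scaled CPM (log axis, linear from 0 for Atg13) of ImpL3 or of a gene correlated with it, by group; points are libraries and bars means. In each panel the 3 cic wts day 9 libraries are above all 15 others, and within cic wts day 5 replicate 3 is the lowest.

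Among the 9 chain enzymes, Hex-A followed ImpL3 most closely (r = 0.79 over the 18 libraries), and the others lay between -0.48 and 0.25. The median correlation of a gene with the other chain enzymes was highest for Tpi (0.65), Eno (0.63), Gapdh1 (0.53) and Pgk (0.52), and negative for Ald (-0.33), ImpL3 (-0.34) and Hex-A (-0.13). The genes most like the mean profile of the 9 chain enzymes were CG7182 (r = 0.876), Tcp-1zeta, a subunit of the chaperonin that folds actin and tubulin (0.874), Trxr-1, a thioredoxin reductase (0.87), CG1299 (0.86) and Pgd, the phosphogluconate dehydrogenase of the pentose phosphate pathway (0.846). The mean profile stood at 7.90 to 8.03 log2 CPM in the control libraries, which overlapped the cic libraries (7.75 to 7.95), and was lowest in cic wts day 5 replicate 2, at 7.49. That library was the one rich in fat body transcripts.

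The 10 genes lie on 5 chromosome arms of release 6 (dm6). Hex-A lies on chromosome X at 9585675-9589813, and ImpL3 on 3L at 6259105-6262694. Pgk (2746880-2753068) and Eno (1724768-1729636) lie on 2L, and Pgi (8910900-8914069), Pfk (10109740-10117457) and Gapdh1 (7791901-7793380) on 2R. Ald (26254069-26261591), Tpi (30132981-30134599) and PyK (22367536-22372746) lie on 3R, the arm that the FRT82B site makes homozygous in the clones and on which cic and wts lie. Tpi lies 655 kb from wts. Alleles that the mutant chromosomes carry near cicQ474X or wts149 cannot be told apart from the mutations for these 3 genes. The same limit holds for other genes named in this report that lie on 3R. Among them are sima (30058311-30121798), Pglym78 (29148248-29149901), CG7059 (22389780-22392349), Mpc1, GlyS, Men-b, tgo, Hph and the marker zfh1 (30765926-30789202). The labels do not state whether reads were counted by strand. Reads of Ald therefore cannot be told apart from those of the antisense RNA asRNA:CR44321 that overlaps it. The same holds for Pgk, which overlaps Cwc25 and Bacc, and for Eno, which overlaps Rrp40.

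Genes of other steps of sugar metabolism were counted in lists, and no list was tested as a set. The shares over all tested genes belong beside the list counts that follow. In wts against control discs, 18.2% were called (10.0% rises, 8.16% falls). In cic wts against control discs, 22.5% were called (11.3% rises, 11.2% falls). Of 9 tested genes for further isozymes and steps of glycolysis, 2 rose and 1 fell in wts against control discs, and the same counts held in cic wts against control discs. Pglym78, the phosphoglycerate mutase that acts between Pgk and Eno, stood at 57.6, 59 and 53.7 CPM in day 5 wts discs, against 83.5, 78.1 and 72.3 CPM in control discs. It fell by 0.46 on the log2 scale in wts (adjusted p = 0.0058) and by 0.59 in cic wts discs (adjusted p = 0.00069) against control. CG7059, a gene near PyK on 3R, stood at 26, 24.5 and 27.3 CPM in day 5 cic wts discs and at 13.8, 12.6 and 16.5 CPM in wts discs, against 1.35, 2.44 and 1.43 CPM in control discs. It rose by 3.88 ± 0.27 in cic wts (adjusted p = 2e-07) and by 3.03 ± 0.27 in wts discs (adjusted p = 2.9e-06). CG11249 rose by 1.39 ± 0.26 in cic wts (adjusted p = 0.0013) and by 1.66 ± 0.26 in wts discs (adjusted p = 0.00053). Each of these calls was kept in every fit without 1 library.

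Of 12 tested genes of sugar uptake and storage, 2 rose and 1 fell in wts against control discs, and 0 rose and 3 fell in cic wts against control discs. Glut1, a glucose transporter, had 7.98, 12.1 and 14 CPM in day 5 cic wts discs and 17.7, 17.4 and 12.2 CPM in wts discs of that age, against 32.4, 25.1 and 44 CPM in control discs. Both mutant groups were below every control library. Glut1 fell by 1.57 on the log2 scale in cic wts (adjusted p = 0.00037) and by 1.10 in wts discs (adjusted p = 0.0063). At day 9 it was at 30.9, 25.5 and 22.9 CPM in cic wts discs and at 30.8, 27.7 and 28.6 CPM in wts discs, and day 9 against day 5 cic wts discs gave a rise of 1.22 ± 0.25 (adjusted p = 0.0073). The matching rise in wts discs (0.88 ± 0.25, adjusted p = 0.042) was lost in 6 of 6 fits without 1 library (adjusted p 0.061 to 0.16). GlyS, glycogen synthase, rose in wts against control discs by 0.46 ± 0.05 (adjusted p = 1.8e-05) and fell in day 5 cic wts against wts discs by 0.32 (adjusted p = 0.0012).

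Against the direction of glycolysis, 1 of 3 tested genes of gluconeogenesis fell in wts and in cic wts discs. It was fbp, fructose-1,6-bisphosphatase, the enzyme that opposes Pfk, at 43.1, 35.5 and 38.6 CPM in day 5 cic wts discs and at 57.2, 56.9 and 57.2 CPM in wts discs, against 78.3, 80.5 and 76.4 CPM in control discs. The 3 groups did not overlap. It fell by 1.01 on the log2 scale in cic wts (adjusted p = 6.2e-06) and by 0.46 in wts discs (adjusted p = 0.0053) against control, and by 0.55 in cic wts against wts discs (adjusted p = 0.0058).

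Of 10 tested genes of pyruvate entry into mitochondria and monocarboxylate transport, 2 rose and 2 fell in wts against control discs, and 1 rose and 2 fell in cic wts against control discs. The count of 4 in wts was 2 without control replicate 1 or wts replicates 2 or 3. Mpc1, a subunit of the mitochondrial pyruvate carrier, stood at 27.8, 29.7 and 29.5 CPM in day 5 cic wts discs and at 28, 25.8 and 30.6 CPM in wts discs, against 19.1, 19.4 and 17.7 CPM in control discs. It rose by 0.63 ± 0.10 in cic wts (adjusted p = 0.00057) and by 0.59 ± 0.11 in wts discs (adjusted p = 0.0015). Of the 14 citric acid cycle genes, 0 were called in wts against control discs and 1 rose in cic wts against control discs, a call absent without control replicate 1 or 3. Of the 16 genes of the respiratory chain and ATP synthase, 0 were called in wts discs and 1 rose in cic wts discs against control. That rise, of Cyt-c-p (0.26, adjusted p = 0.048), was lost with RLE factors and with total-count scaling. It was also lost without control replicates 1 or 3 or cic wts replicates 1 or 3. At day 9 against day 5, 0 of these 16 rose and 4 fell in wts discs, where 6.89% of all tested genes were called (2.70% as falls). The largest of these falls was that of COX5B, a cytochrome oxidase subunit (-0.42 ± 0.09, adjusted p = 0.012). It was lost without wts day 5 replicates 2 or 3 or wts day 9 replicate 2. The count of 4 was 2 without wts day 5 replicate 1 or wts day 9 replicate 1, 1 without wts day 9 replicate 3 and 0 without any of the other 3 libraries. Of the 7 pentose phosphate genes, 1 fell in wts and in cic wts discs against control, transaldolase (Tal), by 0.24 and 0.28 on the log2 scale (adjusted p = 0.042 and 0.017). The call in wts was lost without control replicates 1 or 2 or wts replicates 1 or 3, and that in cic wts without control replicate 1 or cic wts replicate 2. Of the 8 tested genes of the NADH shuttles and malic enzyme, 1 rose and 1 fell in wts against control discs, and 1 rose and 3 fell in cic wts against control discs. The count of 2 in wts was 1 in 5 of the 6 fits without 1 library, those without control replicates 1 or 3 or any wts replicate. The count of 4 in cic wts was 1 without control replicate 1 and 2 without cic wts replicates 2 or 3. Men-b, a malic enzyme, rose in cic wts discs by 0.42 ± 0.08 (adjusted p = 0.001), and Got1, an aspartate aminotransferase, fell in wts discs by 0.28 (adjusted p = 0.0016). Both calls were kept in every fit without 1 library.

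Of 15 genes for regulators of glycolytic genes, 2 rose and 2 fell in wts against control discs, and 2 rose and 4 fell in cic wts against control discs. The rises were those of dm, the fly Myc gene (0.66 ± 0.09 in wts, adjusted p = 0.00018; 0.72 ± 0.09 in cic wts, adjusted p = 4.6e-05), and crc, the fly ATF4 gene (0.59 ± 0.08 and 0.36 ± 0.08, adjusted p = 0.00017 and 0.0043). The genes of the HIF factor, sima and its partner tgo, fell in wts discs by 0.42 and 0.27 (adjusted p = 0.017 and 0.024). They fell in cic wts discs by 0.43 and 0.31 (adjusted p = 0.011 and 0.0095). Without control replicate 3 and cic wts replicate 1 these 4 calls of sima and tgo were lost. In wts discs, that of sima was also lost without control replicate 2 or wts replicate 3 (adjusted p 0.057 and 0.073), and that of tgo without control replicates 2 or 3 or wts replicates 2 or 3 (adjusted p 0.055 to 0.095). The rise of crc in cic wts discs was lost in a fit of the control and cic wts libraries alone (adjusted p = 0.052). Also falling in cic wts against control discs were chrb (-0.65 ± 0.11, adjusted p = 0.00061) and scyl (-0.82 ± 0.21, adjusted p = 0.011), HIF-responsive inhibitors of TOR signalling. That of scyl was lost without control replicate 3 (adjusted p = 0.053) and in 2 other settings, a fit of its own groups and the fit without the 2 libraries.

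In day 9 cic wts against wts discs, 6.90% of all tested genes were called (2.89% rises, 4.01% falls). Of the 15 regulators, 1 rose (Hph) and 2 fell (chrb and crc). Of the genes named here as HIF-responsive, Hph thus rose, chrb fell and scyl was not called. The level of scyl was 473, 514 and 420 CPM in day 9 cic wts discs, against 425, 624 and 519 CPM in wts discs. Whether HIF activity differed was not tested. The level of chrb was 139, 150 and 122 CPM in day 9 cic wts discs, against 214, 193 and 186 CPM in wts discs of that age, with no overlap. It fell by 0.53 on the log2 scale (adjusted p = 0.0073), a call kept in every fit without 1 library. The fall of crc (-0.32 ± 0.08, adjusted p = 0.021) was lost in 4 of 6 such fits. Hph, the oxygen-dependent hydroxylase that marks Sima for destruction and is itself a Sima target, stood at 129, 142 and 80.7 CPM in day 9 cic wts discs, against 51.7, 72.8 and 73.9 CPM in wts discs. As for ImpL3, the 3 cic wts libraries were the higher ones and replicate 3 was the lowest of them. Hph rose in day 9 cic wts against wts discs by 0.83 ± 0.19 (adjusted p = 0.015), a call lost without wts replicate 1 or cic wts replicates 1 or 2 (adjusted p 0.065 to 0.1). It rose in day 9 against day 5 cic wts discs by 0.77 ± 0.19 (adjusted p = 0.021), which 4 of 6 fits without 1 library lost (adjusted p 0.053 to 0.1).

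**Figure D4:**
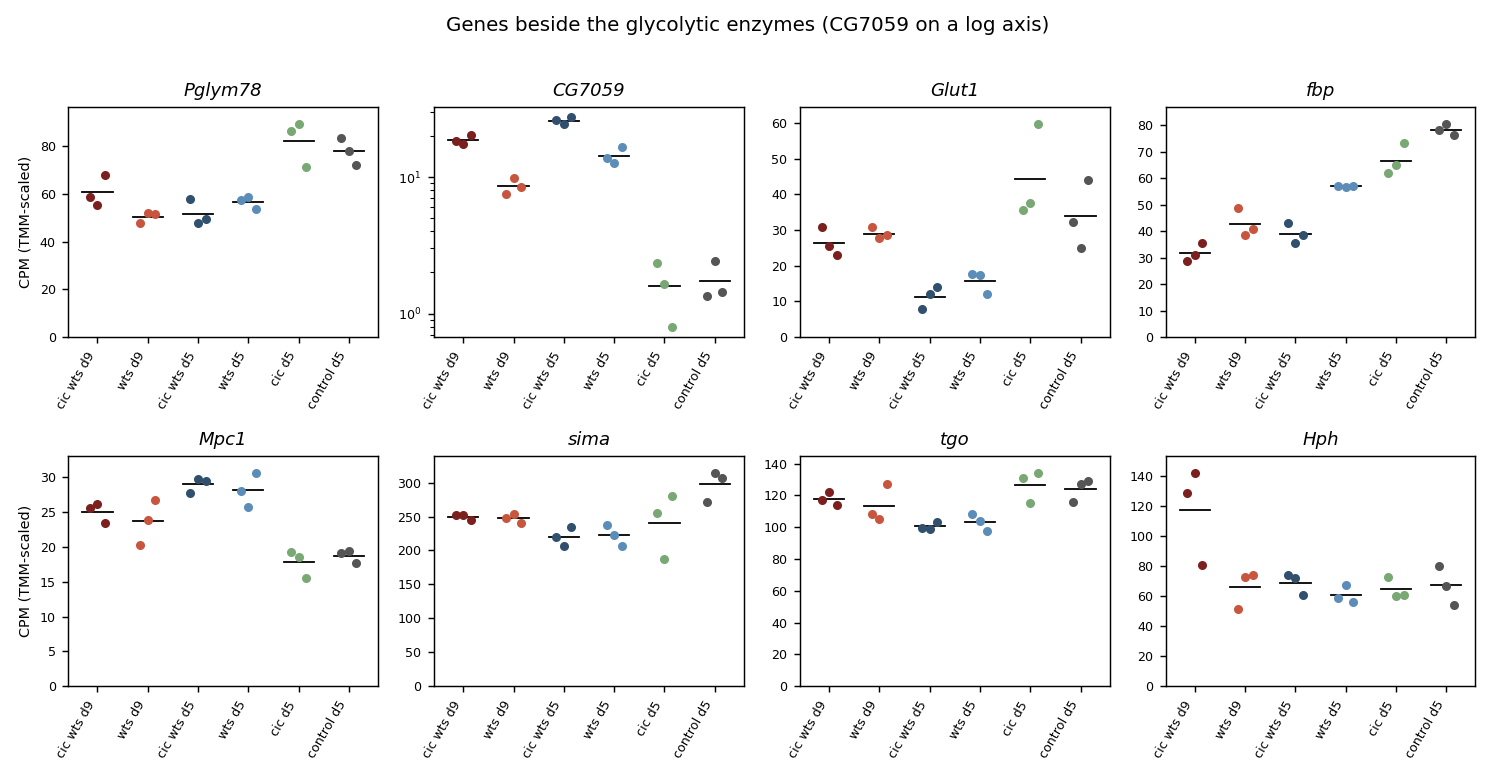
Each panel shows the level in TMM-scaled CPM (linear from 0, log axis for CG7059) of a gene of sugar metabolism or its control, by group; points are libraries and bars means. At day 5 the cic wts and wts libraries are below the control libraries for Pglym78, Glut1 and fbp and above them for CG7059 and Mpc1, and Hph is highest in day 9 cic wts discs.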

How the data were processed

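The measurements are RNA-seq read counts of 18 libraries in 6 groups of 3; the 13 ChIP samples among the 31 were not analysed here. Per the labels, the mRNA was prepared with TruSeq reagents. The raw read counts, 1 row per gene, were used as the authors deposited them. Per the submitters' processing notes, Bowtie2, TopHat2, HTSeq and DESeq2 were used with dm6, and no roles, versions or strand setting are given there. Of 17373 genes, 2937 were at 0 throughout. Names were looked up in a release 6 gene table: 12766 by symbol, 4387 by synonym, 86 by elimination among synonyms and 1 (Ald, as Ald1) by hand. No replicate pair was identical (chi-square per degree of freedom 8.09 to 44.7).

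edgeR 4.0.16 in R 4.3.3 fitted all 18 libraries together with TMM scaling after filterByExpr, which kept 9004 genes (common biological coefficient of variation 0.185). Quasi-likelihood F tests were adjusted over all tested genes by the Benjamini-Hochberg method. Standard errors come from the F statistic, and intervals cover 95%. Of the 10 comparisons, 2 were interactions. The procedure was also tested on simulated counts with 200 changed genes, for cic against control and for wts day 9 against day 5. It recovered 56.7% and 55.2% of 1.5-fold changes, and 83.3% and 81.8% of 4-fold changes. Of the calls, 6.54% and 4.11% were unchanged genes. Differences under 1.5-fold that did not pass may thus have been missed. Alternatives were RLE factors, total-count scaling, no filter, DESeq2 1.42.0, a replicate block, only the groups compared, each library left out, and 2 libraries left out together. Members, gene lists and tests were chosen with earlier results of these data known, and no list was tested as a set. Named genes were the 10 members, up to 4 genes per list and comparison by smallest adjusted p, and the 5 genes most correlated with ImpL3 or with the mean of the others (log2 CPM, prior count 2). Gapdh2 was named after its values were seen. Sequences were not used here.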

Additional observations from a re-analysis of the deposited data

Results flagged for a closer look

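At day 5 the interaction of cic with wts was called for Pfk, at -0.59 ± 0.13 on the log2 scale (adjusted p = 0.032, edgeR). The log2 fold change of cic wts against wts discs was -0.75, and that of cic against control discs was -0.16 and was not called (adjusted p = 0.6). The interaction call was lost in 8 of 12 fits without 1 library, in a fit of the day 5 libraries alone (adjusted p = 0.086) and without the 2 libraries rich in other-tissue transcripts (adjusted p = 0.056).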

How the results depend on the processing

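Of the 22 calls among the 10 genes, 9 were kept in every fit without 1 library and 15 under all other settings. Counts of the 10 genes called, in the fits without 1 library, ran from 0 to 4 in day 5 wts against control, from 2 to 5 in cic wts against control, from 3 to 5 in cic wts against cic, from 1 to 2 in day 9 cic wts against wts, from 0 to 1 in wts day 9 against day 5 and from 0 to 1 for the interaction of cic with wts. With only the groups compared in the fit, 3 were called in cic wts against cic, 2 in wts day 9 against day 5 and 0 for the interaction of cic with wts, which also fell to 0 without the 2 libraries rich in other-tissue transcripts. DESeq2 called 1 for the interaction of cic with day, where edgeR called 0.

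Over all genes, fits without 1 library called 61 to 149 in cic against control, 813 to 1285 in wts against control, 105 to 246 and 307 to 482 in cic wts against wts at days 5 and 9, 118 to 467 in wts and 237 to 871 in cic wts day 9 against day 5, and 92 to 257 for the interaction of cic with wts. DESeq2 called 246 in cic against control, 486 in day 5 cic wts against wts, 1089 in wts day 9 against day 5, 389 for the interaction of cic with wts and 32 for that of cic with day. With only the groups compared, the counts were 19 in cic against control, 1044 in cic wts against control, 1481 in cic wts against cic, 1031 in wts day 9 against day 5 and 78 for the interaction of cic with wts. Leaving out the 2 libraries gave 403 in cic wts day 9 against day 5.

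Deviations of same-numbered libraries correlated at -0.139 to 0.442 over 45 pairs (median 0.054), and 15 were over 0.1. Those of differently numbered libraries correlated at -0.533 to 0.496 over 90 pairs (median -0.0415), and 18 were over 0.1. Whether the numbers mark pairs was not tested. With the replicate number as a block, the call of Gapdh1 in wts against control was lost (adjusted p = 0.052), 3 of the 10 genes were called there in place of 4, and 3 genes were called for the interaction of cic with day, against 0.

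Values that changed sign were all uncalled. Most lay near 0, and the widest range was that of ImpL3 in cic against control. Total-count scaling gave -0.02 for PyK in cic wts against control. Leaving out the 2 libraries gave -0.03 for the same value, -0.05 for Pgi in day 5 cic wts against wts, 0.02 for Pgi and 0.04 for Eno in cic wts day 9 against day 5, -0.10 for Hex-A in the interaction of cic with wts and 0.07 for Pgi in that of cic with day, which was 0.00 with the block. In fits without 1 library the log2 fold changes in cic against control ran from -0.10 to 0.00 for Pgk, -0.17 to 0.07 for Eno and -0.22 to 0.43 for ImpL3. In cic wts against control they ran from -0.03 to 0.18 for Hex-A and -0.02 to 0.10 for PyK, and in cic wts against cic from -0.23 to 0.04 for Pgi. In day 5 cic wts against wts they ran from -0.05 to 0.09 for Pgi, -0.17 to 0.02 for Gapdh1 and -0.20 to 0.05 for Eno. At day 9 they ran from -0.02 to 0.08 for Pgi, -0.24 to 0.06 for Tpi, -0.09 to 0.15 for Gapdh1, -0.08 to 0.12 for Eno and -0.16 to 0.07 for PyK. In wts day 9 against day 5 they ran from -0.13 to 0.03 for Pfk, 0.00 to 0.06 for Ald and -0.22 to 0.01 for Tpi. In cic wts they ran from -0.11 to 0.03 for Pgi, -0.05 to 0.12 for Ald, -0.04 to 0.15 for Pgk and -0.21 to 0.04 for Eno. For the interaction of cic with wts they ran from -0.01 to 0.21 for Hex-A, -0.05 to 0.17 for Ald, -0.10 to 0.03 for Pgk and -0.15 to 0.10 for Eno. For that of cic with day they ran from -0.07 to 0.07 for Pgi, -0.07 to 0.10 for Ald, -0.01 to 0.23 for Gapdh1, -0.03 to 0.22 for Eno and -0.06 to 0.16 for PyK. The cause of these changes was not tested.

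With 3 libraries a group, the wide intervals of ImpL3 limit what its day 5 values can show, while counting depth is ample for the other 9 genes, which held at least 1340 counts in every library.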
